A study of Mus musculus with 6 samples.

Results

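Tnf encodes tumour necrosis factor, and 6 further genes were followed with it because they encode its receptors, the protease that sheds it, an adaptor of its receptors, a related ligand and a gene named for its induction by the cytokine. The 7 members, Tnf, Tnfrsf1a, Tnfrsf1b, Tnfsf9, Tnfaip2, Adam17 and Traf1, were chosen by name, and all 7 were among the 18429 genes of the matrix. Their levels and the share of cells in which they were found are described here in single bone marrow-derived macrophages with and without the cohesin subunit RAD21, before and after lipopolysaccharide (LPS).

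The cells were sorted singly into wells and read by MARS-seq, which tags the 3' ends of transcripts and counts them by unique molecular identifiers (UMIs), so that repeated reads of one molecule count as 1. Macrophages were grown from bone marrow with conditioned medium of L929 fibroblasts. They carried Cre fused to a tamoxifen-responsive oestrogen receptor at Rosa26, a locus that is active in most cell types. The wild-type samples had intact Rad21, and in the Rad21-/- samples the floxed Rad21 alleles were deleted in culture. Cells of both genotypes received 200 nM 4-hydroxytamoxifen after 96 h and were used on day 7. Each genotype was left untreated or given 10 ng/ml of LPS for 2 or 8 h. This gave 6 samples, with 1 sample for each genotype and time. The sources used here do not give the number of mice behind a sample. With no replicates, no test was run, and the 95% intervals cover counting error only.

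LPS is a component of the bacterial outer membrane that macrophages sense through the receptor TLR4, and Tnf is among the genes they switch on earliest. Tumour necrosis factor is made as a trimer in the plasma membrane, and ADAM17, also called TACE, cuts it free. The soluble form acts mainly through the widely expressed receptor TNFR1, which carries a death domain and can lead to NF-kappaB activity or to cell death. The membrane form also activates TNFR2, which is found mainly on immune and endothelial cells and recruits TRAF proteins. Both receptors can be shed by ADAM17 as well.

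The samples held 239 wild-type and 270 Rad21-/- cells without LPS, 372 cells at 2 h in equal numbers of both genotypes, and 257 wild-type and 224 Rad21-/- cells at 8 h, with between 1417409 and 2195921 UMIs per sample and a median of 5577 to 7055.5 UMIs per cell. The cells came from 24 library pools, each of 1 time point, so time and pool cannot be told apart, whereas most pools held both genotypes. In all, 17 wells had more than 25000 UMIs, and they held between 1.71% and 45.5% of the UMIs of a sample. Levels are therefore means over cells of CPM, the UMIs of a gene divided by all UMIs of the cell and multiplied by 1000000, in which every cell has the same weight. Rad21 was found in 18.7% to 26.9% of wild-type and 2.96% to 6.45% of Rad21-/- cells. All 8 macrophage markers examined were found in every sample, with a summed level of 7745 to 10365 CPM in wild-type and 6164 to 6855 CPM in Rad21-/- cells, and the part of this difference in the results was not tested. The summed markers of 7 other lineages did not exceed 32.4 CPM in any sample. Only 1 or 2 markers of each of these lineages were in the matrix, so the sums hold fewer genes than that of macrophages. Genes of other lineages still gave a UMI in some wells, and this is the background against which a low share has to be read. The lymphocyte genes Cd3g and Ms4a1 were found in 2.59% to 9.38% and 3.33% to 9.14% of the cells of a sample. Zbtb46, a marker of dendritic cells, was found in 12.8% to 17.7%, and Cpa3, of mast cells, in 8.17% to 13.0%. In untreated wild-type and Rad21-/- cells, Klrb1c, of natural killer cells, was found in 4.18% and 6.30%. S100a8, of neutrophils, was found in 0% and 0.37% of the same cells. The background thus depends on the gene used.

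The sequences upstream of Tnf and of its receptors are shown because Tnf and Tnfrsf1b were the members furthest below wild-type in Rad21-/- cells, at different times, whereas Tnfrsf1a was within 2-fold of untreated cells throughout. Each sequence is the 250 bases before the start of the gene in RefSeq on GRCm38.p6, read 5' to 3' on the strand of the gene, and TATAAA is in capitals. A window of 250 bases was matched for 6 of the 7 members, and Tnfsf9 is only named. The windows of Tnfaip2 (chr12:111442411-111442660, plus) and Traf1 (chr2:34961773-34962022, minus) overlap the gene coordinates given below, so they are not wholly upstream. Tnf lies on chromosome 17 (35199367 to 35202007, minus strand), Tnfrsf1b on chromosome 4 (145212368 to 145246870, minus strand) and Tnfrsf1a on chromosome 6 (125349723 to 125362483, plus strand). The windows are chr17:35202008-35202257 (minus), chr4:145246871-145247120 (minus) and chr6:125349473-125349722 (plus).
Tnf: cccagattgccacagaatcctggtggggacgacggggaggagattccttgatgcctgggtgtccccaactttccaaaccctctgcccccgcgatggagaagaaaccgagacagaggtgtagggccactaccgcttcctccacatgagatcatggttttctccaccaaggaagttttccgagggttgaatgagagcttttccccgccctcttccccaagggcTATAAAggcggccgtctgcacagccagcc
Tnfrsf1b: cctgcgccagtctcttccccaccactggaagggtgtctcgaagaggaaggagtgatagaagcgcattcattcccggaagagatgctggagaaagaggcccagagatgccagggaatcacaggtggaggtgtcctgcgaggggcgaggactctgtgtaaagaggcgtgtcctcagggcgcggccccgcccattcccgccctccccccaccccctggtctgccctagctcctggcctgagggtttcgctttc
Tnfrsf1a: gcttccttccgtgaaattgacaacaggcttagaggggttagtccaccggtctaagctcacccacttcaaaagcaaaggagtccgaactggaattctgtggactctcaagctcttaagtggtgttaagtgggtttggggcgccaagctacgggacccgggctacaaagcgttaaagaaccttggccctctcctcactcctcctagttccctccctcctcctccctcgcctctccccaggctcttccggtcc
TATAAA, the TATA box, stood at -29 to -24 on the gene's own strand in Tnf and in no other member with a window. Of the 32851 windows of all genes, 12.4% hold it on either strand. GAGGAA, a core of the motif of ETS factors such as PU.1, occurred in Tnf at -117 to -112 on the opposite strand and in Tnfrsf1b at -208 to -203 on the gene's strand, and 23.3% of all windows hold it. GGGCGG, the core of GC boxes, was found in Tnf, Tnfrsf1b, Tnfaip2 and Adam17 and in 32.7% of all windows. The consensus of NF-kappaB sites, which 3.90% of windows hold, TGANTCA (6.75%) and TGACGTCA (1.55%) were in none of the 6 windows. These are matches of letters on either strand, and a window without a match says nothing about the factor.

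Tnf was close to absent in untreated cells and present in nearly every cell after 2 h. Untreated wild-type cells held 12 UMIs of Tnf in total (6.20 to 20.96, exact Poisson interval), spread over 11 of 239 cells, which is 4.60% (2.32% to 8.09%, Clopper-Pearson interval). In untreated Rad21-/- cells there were 7 UMIs (2.81 to 14.4) in 2.59% of cells (1.05% to 5.27%). Both shares were at the level of the lymphocyte genes in the same samples (Cd3g 4.18% and Ms4a1 5.02% in wild-type, 2.59% and 3.33% in Rad21-/-). By these genes Tnf in untreated cells is not distinguished from background. Both shares were above those of S100a8 (0% and 0.37%), so this reading depends on the genes used. After 2 h, every wild-type cell (98.04% to 100%) and 98.9% of Rad21-/- cells (96.2% to 99.9%) had a UMI of Tnf. At 8 h the share was 88.7% (84.2% to 92.3%) in wild-type and 88.4% (83.5% to 92.3%) in Rad21-/- cells.

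The mean level of Tnf followed a different course in the 2 genotypes. In wild-type cells it was 9.68 CPM untreated (4.73 to 19.3), 2927 CPM at 2 h (2827 to 3031) and 747 CPM at 8 h (702 to 794). In Rad21-/- cells it was 3.10 CPM untreated (0.951 to 10.2), 1200 CPM at 2 h (1132 to 1271) and 769 CPM at 8 h (725 to 817). The wild-type 2 h level stood above every other, the Rad21-/- 2 h level came next, and the intervals of the 8 h levels overlapped, as did those of the untreated levels.

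**Figure D1:**
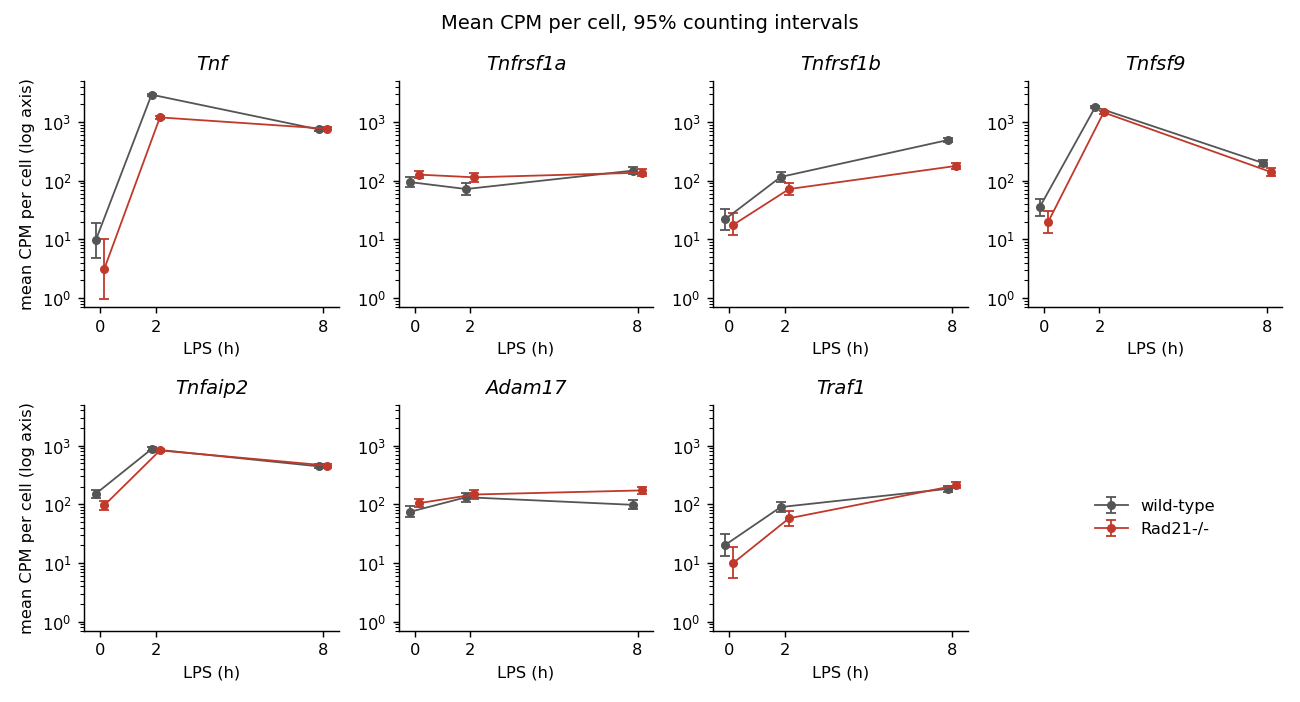
Mean CPM per cell of the 7 members against hours of LPS (log axis), in wild-type (grey) and Rad21-/- cells (red), with 95% counting intervals. Tnf at 2 h was 2927 CPM in wild-type and 1200 CPM in Rad21-/- cells, and Tnfrsf1b at 8 h was 494 and 178.7 CPM.

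Ratios between samples are given on the log2 scale of the mean CPM with a pseudocount of 1 CPM, which understates the change of low genes. On that scale Tnf was 8.10 higher at 2 h than untreated in wild-type cells (7.17 to 9.0), a 274-fold difference (144-fold to 511-fold) that ranked 4 of 14147 genes found in at least 5% of cells of either sample. In Rad21-/- cells the difference was 8.20 (6.74 to 9.27), also rank 4, of 13284 genes. Each ratio rests on 12 or 7 UMIs in an untreated sample that is not distinguished from background, so the sizes are not measures of induction, and a pseudocount of 10 CPM gave 7.22 and 6.53. From 2 h to 8 h Tnf was lower by a log2 ratio of -1.97 in wild-type (-2.07 to -1.87) and -0.64 in Rad21-/- cells (-0.76 to -0.52).

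Between the genotypes, Tnf at 2 h was 2.44-fold lower in Rad21-/- than in wild-type cells, a log2 ratio of -1.29 (-1.38 to -1.19). At 8 h the log2 ratio was 0.04 (-0.08 to 0.17), so a difference was not detectable at this depth, and other scalings gave values between -0.27 and 0.07. The share of cells with a UMI differed by -1.08 percentage points at 2 h (-3.83 to 1.10), where nearly every cell of both genotypes was positive. After thinning every cell to 3800 UMIs the shares were 99.4% in wild-type (96.7% to 99.98%) and 91.6% in Rad21-/- cells (86% to 95.4%), a difference of -7.84 percentage points. The log2 ratio depended in size on how cells were weighted. It was -1.52 after the same thinning, -1.30 without the wells over 25000 UMIs, -0.96 from UMIs summed over the sample and -0.77 from sums scaled by TMM, so the last 2 values were within 2-fold. Summing gives 45.5% of the weight in the wild-type 2 h sample to its 5 wells over 25000 UMIs, and it moved the median log2 ratio of all genes from -0.01 to -0.19.

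Thinned to the same depth, the cells of both genotypes at 2 h formed broad distributions. These were 319 cells, 165 of them wild-type. In wild-type cells the median was 11 UMIs of Tnf (quartiles 6 and 16, highest 33, mean 11.7), and in Rad21-/- cells it was 3 UMIs (quartiles 2 and 5, highest 24, mean 4.08). The lower quartile of wild-type cells thus stood above the upper quartile of Rad21-/- cells. No UMI of Tnf remained in 0.606% of wild-type and 8.44% of Rad21-/- cells. The variance was 3.85 times the mean in wild-type and 3.98 times the mean in Rad21-/- cells, where a Poisson count would give a ratio near 1. At 8 h the median was 2 UMIs in both genotypes (means 2.83 and 2.96, upper quartile 4 in both), and the ratio of variance to mean was 2.99 and 3.03.

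**Figure D2:**
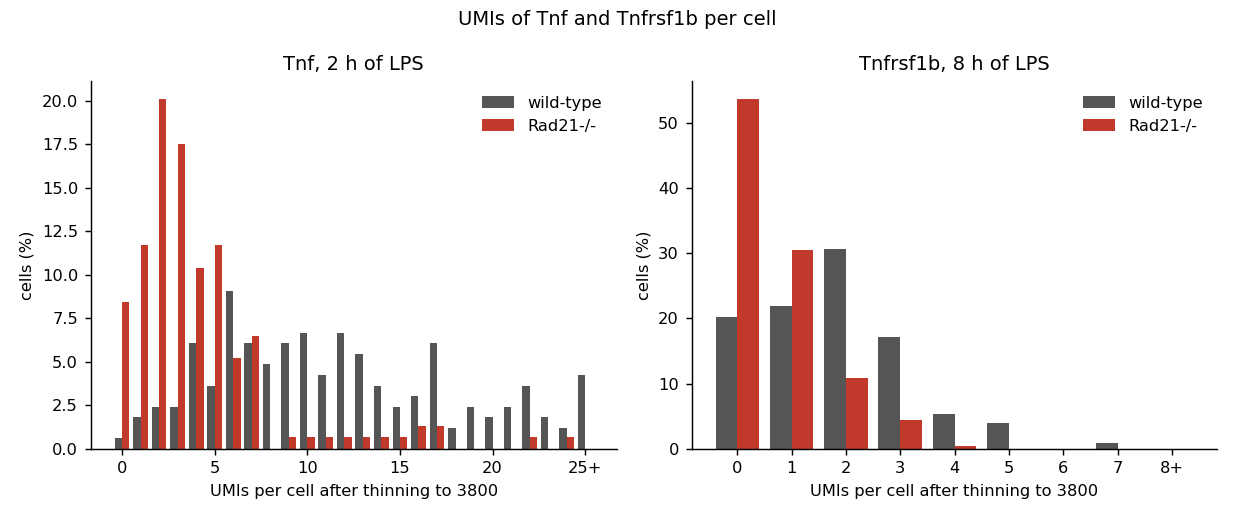
Share of cells (%) by the number of UMIs per cell after thinning to 3800 UMIs, for Tnf at 2 h and Tnfrsf1b at 8 h, in wild-type (grey) and Rad21-/- cells (red), with the highest counts combined in the last bar. The Tnf counts of Rad21-/- cells gather around a median of 3 against 11 in wild-type, and 53.7% of Rad21-/- cells against 20.2% of wild-type cells have no Tnfrsf1b.

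The 2 receptors differed in their response. Tnfrsf1a, which encodes TNFR1, gave a UMI in 43.1% of wild-type cells before LPS (36.7% to 49.6%), 36.6% after 2 h (29.6% to 43.9%) and 56.4% after 8 h (50.1% to 62.6%). For Rad21-/- cells these percentages were 49.6% (43.5% to 55.8%), 52.2% (44.7% to 59.5%) and 57.6% (50.8% to 64.1%). Its mean level ran from 72.0 CPM in wild-type cells at 2 h to 149 CPM in wild-type cells at 8 h, and the 4 other samples lay between, with each neighbour in the order overlapping the next. Against untreated cells Tnfrsf1a stayed within 2-fold in both genotypes, with log2 ratios of -0.39 (-0.81 to 0.05) and 0.65 (0.31 to 0.99) at 2 and 8 h in wild-type and -0.15 (-0.48 to 0.18) and 0.11 (-0.19 to 0.41) in Rad21-/- cells. The wild-type value at 2 h was 0.06 from summed UMIs and the one at 8 h was 1.05 under TMM. At 2 h Tnfrsf1a was higher in Rad21-/- than in wild-type cells, by a log2 ratio of 0.66 (0.24 to 1.07).

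Tnfrsf1b, which encodes TNFR2, was higher at each later time in both genotypes. In the untreated, 2 h and 8 h samples, 11.7% (7.93% to 16.5%), 48.9% (41.5% to 56.3%) and 90.3% (85.98% to 93.6%) of the wild-type cells had a UMI. The Rad21-/- shares were 9.63% (6.39% to 13.8%), 35.5% (28.6% to 42.8%) and 60.7% (53.99% to 67.2%). The untreated shares were above those of the lymphocyte genes in the same samples (at most 5.02% in wild-type and 3.33% in Rad21-/- cells). They were below those of Zbtb46 (13.4% and 14.1%) and Cpa3 (13.0% and 10.4%). By the latter markers untreated Tnfrsf1b is not set apart from background, which limits its ratios to untreated cells. The mean level was 21.9, 115.9 and 494 CPM in wild-type (interval at 8 h 457 to 533) and 17.7, 72.0 and 178.7 CPM in Rad21-/- cells (interval at 8 h 158 to 204). Only the untreated levels overlapped.

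Relative to untreated cells, Tnfrsf1b was higher by a log2 ratio of 2.35 (1.71 to 2.96) at 2 h and 4.43 (3.84 to 5.0) at 8 h in wild-type cells, which is 5.10-fold and 21.6-fold. The values in Rad21-/- cells were 1.96 (1.26 to 2.62) and 3.26 (2.62 to 3.86), or 3.90-fold and 9.59-fold. At 8 h Tnfrsf1b was 2.75-fold lower in Rad21-/- than in wild-type cells, a log2 ratio of -1.46 (-1.67 to -1.24) that lay between -1.68 and -1.24 under the other settings. At 2 h the log2 ratio was -0.68 (-1.10 to -0.25), or -1.11 from summed UMIs, and without LPS it was -0.29 (-1.10 to 0.54). The share of cells with Tnfrsf1b at 8 h differed by -29.6 percentage points (-37.1 to -21.8). After thinning, a UMI remained at 8 h in 79.8% of the 228 wild-type and 46.3% of the 203 Rad21-/- cells, with medians of 2 and 0 and means of 1.82 and 0.675 UMIs.

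Tnfsf9 is a ligand of the same family that signals to the receptor Tnfrsf9 on T cells. After Tnf, it was the member with the largest log2 ratio to untreated cells at 2 h. It lies on chromosome 17 as well (57105287 to 57107758). It was found in 14.2% (10.1% to 19.3%), 98.9% (96.2% to 99.9%) and 55.6% (49.3% to 61.8%) of untreated, 2 h and 8 h wild-type cells, and in 10.0% (6.69% to 14.2%), 96.8% (93.1% to 98.8%) and 52.2% (45.5% to 58.9%) of Rad21-/- cells. The untreated share was just above those of Zbtb46 (13.4%) and Cpa3 (13.0%) in wild-type cells. In Rad21-/- cells it was below them (14.1% and 10.4%). By these markers untreated Tnfsf9 is not set apart from background in Rad21-/- cells, which limits its ratios there. The mean level was 34.98, 1807 and 202 CPM in wild-type and 19.4, 1456 and 141 CPM in Rad21-/- cells. At 2 h the log2 ratio to untreated cells was 5.65 (5.16 to 6.13) in wild-type and 6.16 (5.54 to 6.74) in Rad21-/- cells, rank 11 in both. From 2 h to 8 h it was lower by a log2 ratio of -3.16 (-3.34 to -2.97) and -3.36 (-3.58 to -3.14), which was further than for Tnf. The genotypes were closer than for Tnf at 2 h, with a log2 ratio of -0.31 (-0.41 to -0.21) that became 0.03 under TMM, and at 8 h the ratio was -0.52 (-0.79 to -0.24).

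Tnfaip2, named as a gene induced by tumour necrosis factor, lies on chromosome 12 (111442450 to 111455018, plus strand) and was already found in many untreated cells. Its shares were 52.7% (46.2% to 59.2%), 98.9% (96.2% to 99.9%) and 82.9% (77.7% to 87.3%) in wild-type and 37.8% (32.0% to 43.9%), 96.2% (92.4% to 98.5%) and 81.7% (76% to 86.5%) in Rad21-/- cells. The mean level was 152, 877 and 445 CPM in wild-type and 96.0, 832 and 460 CPM in Rad21-/- cells. The difference between genotypes was thus in the untreated cells, with a log2 ratio of -0.66 (-0.99 to -0.32) and -14.9 percentage points of share (-23.6 to -6.02). After LPS the log2 ratio was -0.08 (-0.21 to 0.06) at 2 h and 0.05 (-0.11 to 0.21) at 8 h, and both changed sign under TMM.

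Traf1 encodes an adaptor that binds TRAF2 at TNFR2 and related receptors, and it lies on chromosome 2 (34941750 to 34961812, minus strand). It was found in 9.21% (5.86% to 13.6%), 43.5% (36.3% to 51.0%) and 63.8% (57.6% to 69.7%) of wild-type cells, and in 5.19% (2.86% to 8.55%), 25.8% (19.7% to 32.7%) and 71.0% (64.6% to 76.8%) of Rad21-/- cells. The untreated shares of Traf1 were above those of the lymphocyte genes in the same samples. They were below those of Zbtb46 (13.4% and 14.1%) and Cpa3 (13.0% and 10.4%). By the latter markers untreated Traf1 is not set apart from background, which limits its ratios to untreated cells. The mean level was 20.2, 90.02 and 184 CPM in wild-type and 10.1, 58 and 211 CPM in Rad21-/- cells. Like Tnfrsf1b it was higher at 8 h than at 2 h in both genotypes, but at 8 h the intervals of the genotypes overlapped. At 2 h the share was 17.7 percentage points lower in Rad21-/- cells (-27.4 to -7.73) and the log2 ratio of the level was -0.63 (-1.13 to -0.12), which became -1.14 after thinning.

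Adam17, the sheddase of tumour necrosis factor and its receptors, lies on chromosome 12 (21323509 to 21373632, minus strand) and changed least after Tnfrsf1a. It was found in 35.1% (29.1% to 41.6%), 57.5% (50.1% to 64.7%) and 42.02% (35.9% to 48.3%) of wild-type cells and in 40% (34.1% to 46.1%), 54.3% (46.9% to 61.6%) and 67.4% (60.8% to 73.5%) of Rad21-/- cells. The mean level was 75, 133 and 98.2 CPM in wild-type and 104.9, 147.5 and 173 CPM in Rad21-/- cells, and each neighbour in the order of levels overlapped the next. At 2 h it was higher than untreated by a log2 ratio of 0.81 (0.42 to 1.20) in wild-type and 0.49 (0.16 to 0.82) in Rad21-/- cells. At 8 h Adam17 was higher in Rad21-/- than in wild-type cells, by a log2 ratio of 0.81 (0.50 to 1.12) and 25.4 percentage points of share (16.3 to 34). The median log2 ratio of all genes was 0.22 in that comparison, and relative to it Adam17 was 0.59 higher.

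**Figure D3:**
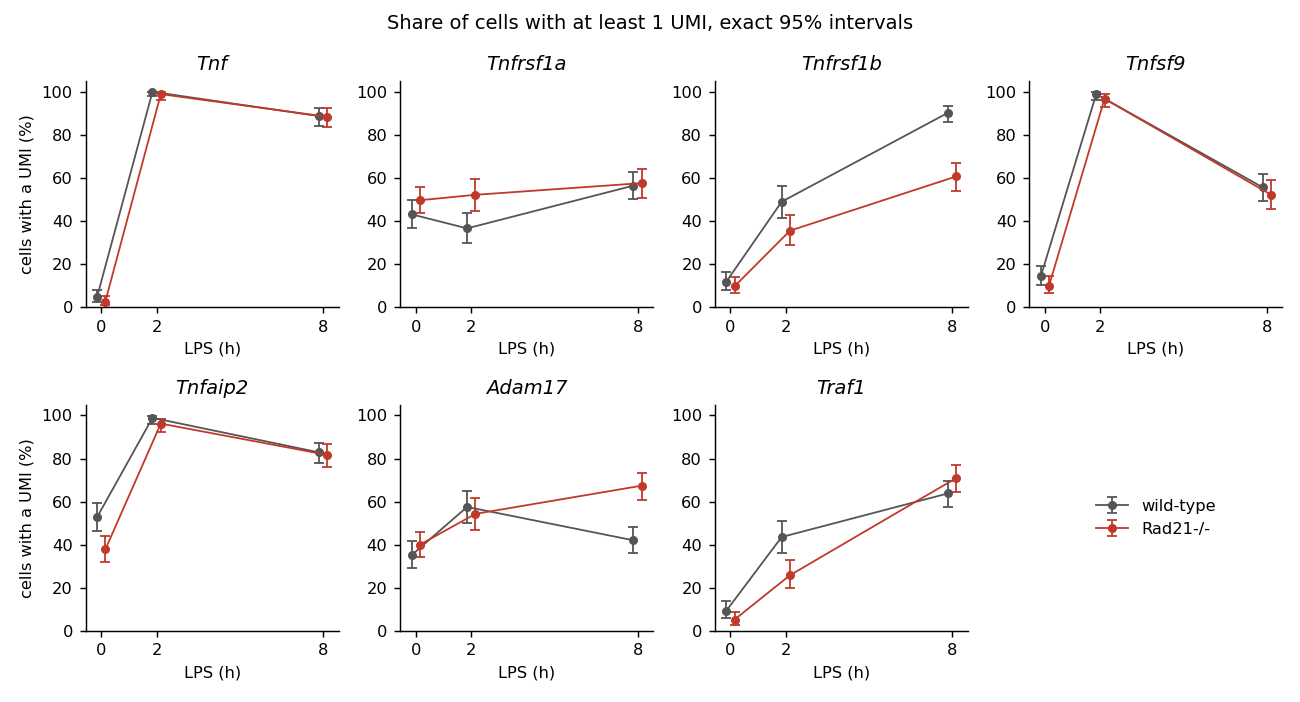
Share of cells with at least 1 UMI (%) of each member against hours of LPS, in wild-type (grey) and Rad21-/- cells (red), with exact 95% intervals. The genotypes stand furthest apart for Tnfrsf1b (90.3% and 60.7%) and Adam17 (42.02% and 67.4%) at 8 h, while Tnf exceeds 98% in both at 2 h.

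Counted together, 5 of the 7 members (Tnf, Tnfrsf1b, Tnfsf9, Tnfaip2 and Traf1) were at least 2-fold higher than untreated at both times and in both genotypes, and none was 2-fold lower. By Zbtb46 and Cpa3, untreated Tnf, Tnfrsf1b and Traf1 were not set apart from background. The same held for untreated Tnfsf9 in Rad21-/- cells, so the sizes of these ratios are limited. Over all genes that passed the 5% filter, 5.58% were 2-fold higher at 2 h and 7.22% at 8 h in wild-type cells, and 4.94% and 7.9% in Rad21-/- cells, while 5.82%, 18.7%, 4.79% and 7.29% were 2-fold lower in the same comparisons. The median log2 ratio of the members was 2.35 and 2.49 in wild-type cells, where that of all genes was -0.08 and -0.27, and 2.42 and 2.80 in Rad21-/- cells, where that of all genes was -0.04 and -0.01. The comparisons at 2 and 8 h share their untreated sample. From 2 h to 8 h, 3 members were 2-fold higher in wild-type cells (Tnfrsf1a, Tnfrsf1b and Traf1, beside 6.54% of all genes) and 2 were lower (Tnf and Tnfsf9, beside 14.6%). In Rad21-/- cells 2 were higher (Tnfrsf1b and Traf1, beside 7.53%) and 1 was lower (Tnfsf9, beside 6.4%). In wild-type cells, Tnfrsf1a at 1.04 and Traf1 at 1.03 were just past the limit and Tnfaip2 at -0.98 just short of it.

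Between genotypes, none of the 6 members that passed the filter differed 2-fold in untreated cells, where 2.8% of all genes were higher and 5.55% lower in Rad21-/- cells, and Tnf did not pass it. At 2 h Tnf alone was 2-fold lower in Rad21-/- cells, beside 8.3% of all genes, and at 8 h Tnfrsf1b alone was, beside 5.01%. None was 2-fold higher, beside 4.52% and 10.3% of all genes. With 1 of 7 members each, the counts themselves do not set the members apart from all genes. The median log2 ratio of the members was -0.31 at 2 h and 0.04 at 8 h, and that of all genes was -0.01 and 0.22. The split of all genes past 2-fold moved with the scaling, since 67.3% of them were higher in Rad21-/- cells at 8 h from mean CPM and 46.0% under TMM, and 35.3% at 2 h from mean CPM and 15.7% from summed UMIs. In wild-type cells, 48.9% of the genes past 2-fold at 2 h were higher than untreated from mean CPM, 77.6% from summed UMIs and 66.4% under TMM, and at 8 h the share was 27.8% and, under TMM, 47.5%. For 8 h against 2 h it was 30.9% from mean CPM, 18.8% from summed UMIs and 42.5% under TMM. For Rad21-/- cells at 2 h against untreated it was 50.8% and 61.7% under TMM.

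The ratio of a mean level is the ratio of the share of positive cells times the ratio of the mean CPM of positive cells. Divided in this way, the members differed in which part was larger. For Tnf in wild-type cells at 2 h, the share contributed 4.44 and the level in positive cells 3.8 on the log2 scale. Both parts rest on 11 positive untreated cells, 10 of them with 1 UMI, that are not distinguished from background, so they do not describe Tnf itself. For Tnfsf9 the parts were 2.80 and 2.89, and 27 of its 34 positive untreated cells had 1 UMI. For Traf1 the share contributed 2.24 and the level in positive cells -0.09, and for Tnfrsf1b the share gave 2.06 and the level 0.34. Untreated Traf1 and Tnfrsf1b were not set apart from background by Zbtb46 and Cpa3, which limits their parts as well. Tnfaip2, found in many untreated cells, had the larger part in the level (0.91 and 1.62). In genes with about 1 UMI per positive cell a higher level appears as a higher share, so the parts depend on depth.

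**Figure D4:**
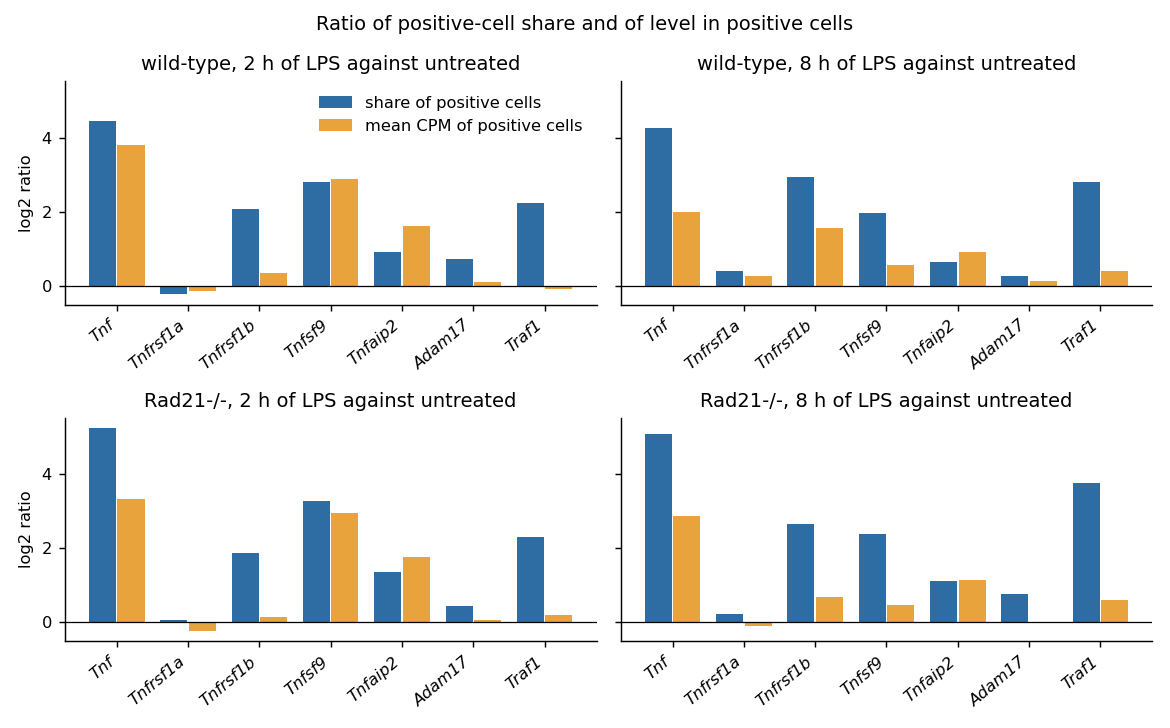
Log2 ratio, against untreated cells, of the share of positive cells (blue) and of the mean CPM of positive cells (orange), for each member, genotype and time. For Traf1 at 2 h in wild-type cells the share gave 2.24 and the level -0.09, whereas for Tnfaip2 the level (1.62) exceeded the share (0.91). Untreated Traf1 was not set apart from background by Zbtb46 and Cpa3.

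The same division was made between genotypes. For Tnf at 2 h it says little, because nearly every cell was positive and the share part, -0.02, could not be far from 0, with -1.27 left to the level. At 8 h the Tnfrsf1b ratio had -0.57 in the share and -0.89 in the level. For Adam17 at 8 h it was 0.68 in the share and 0.14 in the level, and for Traf1 at 2 h it was -0.75 and 0.12.

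The genotypes could be compared inside single library pools where each contributed 10 cells or more. At 2 h Tnf was lower in Rad21-/- cells in all 4 such pools, with log2 ratios from -1.56 to -0.85. Wild-type levels across these pools were 2055 to 4109 CPM and Rad21-/- levels 812 to 1397 CPM, without overlap. At 8 h, 3 of the 6 pools were below and 3 above 0 for Tnf (-0.86 to 0.43). Tnfrsf1b was lower in Rad21-/- cells in all 6 pools at 8 h, from -2.10 to -0.98, with wild-type levels of 454 to 558 CPM and Rad21-/- levels of 129.3 to 243 CPM.

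Of the smaller differences, some had 1 sign in every pool and others did not. Tnfrsf1b was lower in 4 of 4 pools at 2 h (-1.06 to -0.42), Tnfrsf1a higher in 4 of 4 at 2 h (0.51 to 1.31) and Tnfsf9 lower in 4 of 4 at 2 h (-0.55 to -0.17). Adam17 was higher in Rad21-/- cells in 6 of 6 pools at 8 h (0.22 to 2.18). In untreated cells Tnfaip2 was lower in 8 of 8 pools (-1.41 to -0.35) and Tnfrsf1a higher in 8 of 8 (0.02 to 0.76). Traf1 at 2 h was lower in 3 of 4 pools (-1.13 to 0.20), and Tnfsf9 at 8 h was lower in 4 of 6 (-0.80 to 0.67). Cells of a pool share a sample of each genotype with the other pools, so the pools are repeats of the library step and not of the culture.

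**Figure D5:**
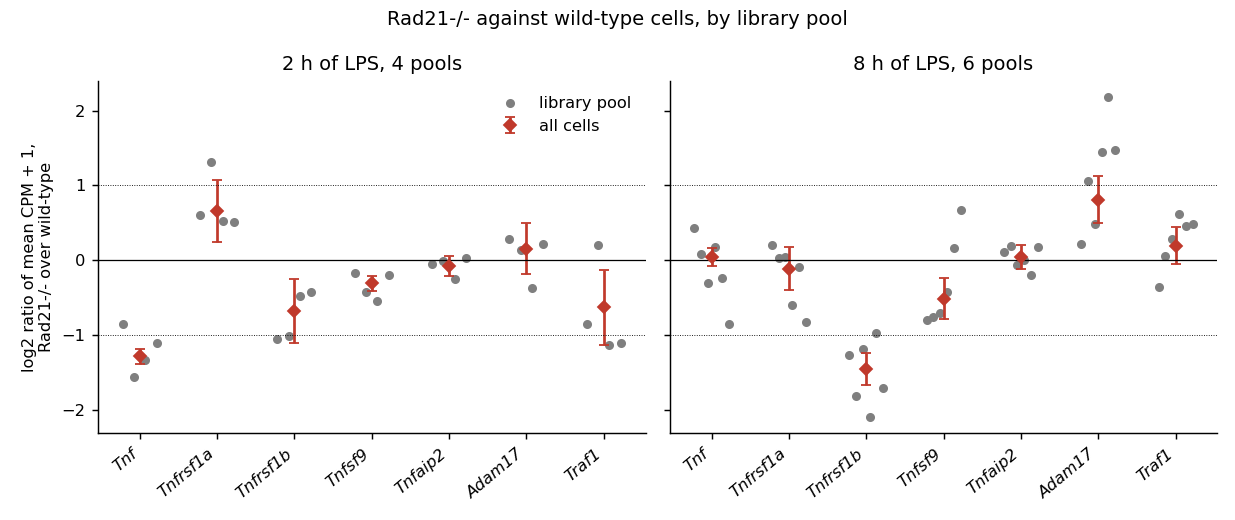
Log2 ratio of mean CPM + 1 in Rad21-/- over wild-type cells for each member, in single library pools (grey points) and over all cells (red, with 95% counting interval), with dotted lines at 2-fold. All 4 pools lie below 0 for Tnf at 2 h and all 6 for Tnfrsf1b at 8 h, while Tnf at 8 h has 3 pools on either side.

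The members were found together more often after LPS. Of cells thinned to 3800 UMIs, the median untreated cell held a UMI of 1 member in either genotype, and the median cell at 2 or 8 h held 4. No member was found in 55 of 192 untreated wild-type and 58 of 223 untreated Rad21-/- cells, and every cell had at least 1 member at both times after LPS. Tnf and Tnfrsf1b, a ligand and its receptor, were found in the same cell in 33.3% of the wild-type and 22.7% of the Rad21-/- cells at 2 h, and in 64.9% and 38.9% at 8 h. At 2 h nearly every cell had Tnf, so the joint share is fixed close to that of Tnfrsf1b alone. At 8 h the products of the separate shares are 66.2% and 37.6%. Tnf and Tnfrsf1a were together in 34.2% of wild-type and 32.0% of Rad21-/- cells at 8 h, beside products of 33.1% and 32.4%.

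Within the 2 h samples the number of Tnf UMIs was related most closely to another early gene, Cxcl2, which encodes a chemokine that attracts neutrophils. Over 2886 genes in thinned cells, Spearman's rho with Tnf in wild-type cells was 0.43 for Cxcl2 and 0.39 for Tnfsf9 (n = 165), and in the remaining ones of the 319 cells, all Rad21-/-, it was 0.48 and 0.31. The middle 98% of genes lay between -0.23 and 0.20 in wild-type cells. Within each of 4 pools the values of Cxcl2 were 0.30 to 0.44 in wild-type and 0.31 to 0.56 in Rad21-/- cells, and those of Tnfsf9 were 0.27 to 0.70 and 0.17 to 0.36. The next genes of the wild-type order, Ier3 (0.35), H2-D1 (0.35) and Rps3a1 (0.30), had lower values in Rad21-/- cells (0.14, 0.14 and 0.02). They were picked for their high wild-type values, so the 2 sets of values do not compare the genotypes. The remaining members were at 0.14 or lower in wild-type cells at 2 h. These are correlations across cells that share pools and a fixed thinned total.

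By their mean levels over the 6 samples, the genes most like Tnf were Cxcl2, Socs3 and Cxcl10, at distances of 1.30, 1.90 and 2.75 in log2 units among 15203 genes, where a distance is the root of the summed squared differences after centring. Those most like Tnfrsf1b were Arid5a (0.74), Sod2 (0.78) and Gbp5 (0.81), and those most like Tnfsf9 were Nfkbiz (1.61), Phlda1 (1.83) and Gem (2.09). Tnfaip2 was closest to Nfkbie (0.28), Tlr2 (0.55) and Plaur (0.57), and Traf1 to Ehd1 (0.66), Gm10634 (0.77) and Sod2 (0.78). For Tnfrsf1a the closest were Gng12 (0.20), Tpte (0.20) and Cnppd1 (0.24), and for Adam17 Pspc1 (0.17), Gm12274 (0.22) and Gm8141 (0.26). Tnfrsf1a and Adam17 were also the members that changed least.

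The lists of related genes hold several of the members and were chosen with earlier results known, so their counts are given only as a description. Of 18 listed ligands 12 were in the matrix, and of the 9 that passed the filter at 2 h in wild-type cells 3 were 2-fold higher than untreated, namely Tnf, Tnfsf9 and Tnfsf15 (2.20 to 21.3 CPM), beside 5.58% of all genes, and none was 2-fold lower, beside 5.82%. Among the ligands lower at 8 h was Tnfsf12, which encodes TWEAK, at 157 CPM untreated and 29.6 CPM at 8 h in wild-type and 147.8 and 52.6 CPM in Rad21-/- cells. Tnfsf10, which encodes the death ligand TRAIL, was at 45.0 CPM in wild-type and 8.88 CPM in Rad21-/- cells at 8 h. The median log2 ratio of the ligands between genotypes was -0.70 at 2 h, where 5 of 10 were 2-fold lower (8.3% of all genes, whose median was -0.01), and -0.38 at 8 h, where 2 of 9 were (5.01% of all genes, median 0.22), and none was 2-fold higher at either time. Lta and Ltb, the neighbours of Tnf on chromosome 17, were not analysed here.

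Of 28 listed receptors 20 were in the matrix. At 8 h in wild-type cells 3 of the 14 that passed the filter were 2-fold higher than untreated, Tnfrsf1b, Cd40 and Fas, beside 7.22% of all genes, and 1 (Tnfrsf13b) was lower, beside 18.7%. Cd40, the receptor through which T cells activate macrophages, was at 21.3, 119 and 472 CPM in wild-type and 33.6, 188 and 493 CPM in Rad21-/- cells, so that its course resembled that of Tnfrsf1b in wild-type cells while the genotypes did not separate at 8 h. Fas was at 7.22, 23.3 and 66.2 CPM in wild-type and 5.77, 37.8 and 63.4 CPM in Rad21-/- cells. At 8 h 2 of 15 receptors were 2-fold lower in Rad21-/- cells, Tnfrsf1b and Tnfrsf11a (35.05 and 15.5 CPM), beside 5.01% of all genes, and 1 (Tnfrsf22) was higher, beside 10.3%.

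Downstream of the receptors, 31 of 32 listed signalling genes were in the matrix, and 6 of 29 that passed the filter were 2-fold higher at 2 h and 10 of 30 at 8 h in wild-type cells, beside 5.58% and 7.22% of all genes. None was 2-fold lower at 2 h and 2 of 30 (Fadd and Traf7) were at 8 h, beside 5.82% and 18.7%. The leading ones at 8 h were Tnfaip3, Tnip3 and Traf1. Tnfaip3, which encodes the ubiquitin-editing enzyme A20, was at 10.3, 424 and 322 CPM in wild-type and 4.50, 281 and 149 CPM in Rad21-/- cells. Tnip3, which encodes a partner of A20, was at 52.6, 353 and 1513 CPM in wild-type and 23.7, 505 and 718 CPM in Rad21-/- cells. Both were 2-fold lower in Rad21-/- cells at 8 h, beside 5.01% of all genes, and 3 of the 30 genes (Traf5, Traf3 and Tradd) were higher, beside 10.3%. For shedding, 5 of 6 listed genes were in the matrix. At 2 h in wild-type cells 1 of the 4 that passed the filter, Rhbdf2, was 2-fold higher than untreated, beside 5.58% of all genes. Rhbdf2, which encodes the cofactor iRhom2 that ADAM17 needs to mature, was at 30.1, 82.2 and 114.2 CPM in wild-type and 18.5, 61.7 and 67.8 CPM in Rad21-/- cells. Between genotypes at 8 h, 1 of 5 (Rhbdf1) was 2-fold higher in Rad21-/- cells, beside 10.3%, and none was lower, beside 5.01%. The median log2 ratio of the list was 0.51 there, and that of all genes was 0.22. The list of genes named TNF alpha-induced protein had 2 of 5 members 2-fold higher at 2 h in wild-type cells, Tnfaip3 and Tnfaip2, beside 5.58% of all genes, and 1 (Tnfaip8l2) 2-fold lower, beside 5.82%.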

How the data were processed

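MARS-seq was applied to single bone marrow-derived macrophages in 6 samples. The authors demultiplexed reads by pool and cell barcode and mapped them with GEMTools 1.7.0 to GRCm38.p4 with Gencode M8. They discarded wells with more than 15% spike-in, less than 60% mapped reads or total reads above an upper limit. They merged UMIs up to an edit distance of 2 and deposited unnormalized UMI counts per gene and cell. Genes in under 5% of cells were to be dropped by the stated methods, but the deposited matrix has 18429 genes, and 5709 were found in fewer cells than that. All 1362 cells were assigned to a sample and pool by name, and no cell name was shared between samples. No doublet caller was run, since cells were sorted singly. Wells over 25000 UMIs were kept.

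Shares carry Clopper-Pearson intervals, sums exact Poisson intervals, mean CPM gamma (Fay-Feuer) intervals, log2 ratios intervals combined from those of both means, and share differences Newcombe intervals, all at 95%. A gene counted as 2-fold different at a log2 ratio of at least 1 in size if at least 5% of the cells of either sample had it. For thinning, UMIs were drawn at random without replacement to 3800 per cell, which left out 21 to 47 cells per sample. The members, the lists of related genes and the markers were chosen with earlier results of these data known. Genes outside the members were named as the 3 leading in a list in each direction, the 3 most like a member, or the 5 with the highest correlation with Tnf, and mt-Nd2 and mt-Rnr1 after their values were seen. Python 3.11.15, numpy 2.4.6, pandas 2.3.3, scipy 1.17.1 and matplotlib 3.10.9 were used, with edgeR 4.0.16 in R 4.3.3 for TMM factors. The steps were tested on simulated data. Alternatives were thinning to 3800 or 5500 UMIs, leaving out deep wells or each pool, summed UMIs with and without TMM, equal weight per pool, centring on the median of all genes, a pseudocount of 10 CPM, other filters and a minimum of 2 UMIs per positive cell.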

Additional observations from a re-analysis of the deposited data

Results flagged for a closer look

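One member moved in opposite directions in the 2 genotypes. From 2 h to 8 h of LPS the share of cells with a UMI of Adam17, the sheddase of tumour necrosis factor, differed by -15.5 percentage points in wild-type cells (57.5% to 42.02%, interval of the difference -24.9 to -5.76) and by 13.1 percentage points in Rad21-/- cells (54.3% to 67.4%, 3.29 to 22.7). It was marked because the intervals lie on opposite sides of 0, and the difference between the genotypes was not tested. After thinning to 3800 UMIs the differences were -9.51 and 7.81 percentage points, so the direction remained and the sizes were smaller. The thinned shares at 2 and 8 h were 37.6% (30.2% to 45.4%) and 28.1% (22.3% to 34.4%) in wild-type cells. In Rad21-/- cells they were 37.0% (29.4% to 45.2%) and 44.8% (37.9% to 51.9%). These intervals overlapped in each genotype. No interval of a thinned difference was calculated, so the mark holds only for the shares before thinning. The log2 ratios of the mean level were -0.43 (-0.78 to -0.08) and 0.23 (-0.07 to 0.52). Each genotype has 1 sample per time, and the 2 h and 8 h cells came from different pools.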

How the results depend on the processing

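The number of members past 2-fold was the same under every setting run for Rad21-/- cells in each comparison of times and between genotypes at 8 h. In wild-type cells against untreated it was 5 at both times, and 6 at 2 h from summed UMIs (with Adam17) and at 8 h under TMM (with Tnfrsf1a). For wild-type cells at 8 h against 2 h it was 5, and 3 with a pseudocount of 10 CPM and 4 when thinned to 3800 or 5500 UMIs, from summed UMIs and when pools were weighted equally; omission of each pool in turn gave 3 to 6, with 3 without a 2 h pool of 43 wild-type cells or an 8 h pool of 48 wild-type cells. Between untreated genotypes it was 0, and 1 when thinned to 3800 or 5500 UMIs, from summed UMIs, under TMM and without a filter; leaving out pools gave 0 to 2, with 2 without 2324AA and 1 without 2325AA, 2326AA or 2328AA. Between genotypes at 2 h it was 1, and 2 when thinned to 3800 UMIs (Tnf and Traf1) and 0 under TMM; from summed UMIs it was again 1, but this was Tnfrsf1b (-1.11) and not Tnf (-0.96). No difference past its limit changed sign. Over all settings that keep every pool, 462 log2 ratios of single members stayed within the interval of the reported value and 42 moved outside it, and the counts for differences in share were 262 and 53. Some small ratios changed sign, among them Tnf between genotypes at 8 h (0.04 and, under TMM, -0.27). No paired analysis was possible because each group is 1 sample. Depth limits low shares: for a gene found in no cell, counting error allows a UMI to be found in up to 1.11% to 1.61% of cells like those of a sample, and the share of cells expressing it could be higher, and most members other than Tnf and Tnfsf9 gave a median of 0 or 1 UMI per cell, where a share and a level cannot be told apart.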

Other observations

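In the wild-type 2 h sample the genes with the lowest correlation with Tnf across thinned cells were mainly mitochondrial, which was noticed after the values were seen. Spearman's rho was -0.46 for mt-Nd2 and -0.45 for mt-Rnr1 in 165 wild-type cells, and -0.20 and -0.24 in Rad21-/- cells. Both genes were picked for their low wild-type values, so these values do not compare the genotypes. Within 4 pools it ranged from -0.37 to -0.20 for mt-Nd2 and from -0.34 to -0.04 for mt-Rnr1 in wild-type cells, and from -0.27 to 0.24 and from -0.38 to -0.02 in Rad21-/- cells. The median share of mitochondrial UMIs per cell at 2 h was 4.96% in wild-type (quartiles 3.05% and 6.50%) and 4.97% in Rad21-/- cells (2.14% and 8.81%), and its part in the results for Tnf was not tested. The cells share pools and a fixed total of UMIs.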
